A study of Mus musculus with 23 samples.

Results

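The genes described here are 9 members of transforming growth factor beta (TGF-beta) signalling and of the Id family: the ligands Tgfb1, Tgfb2 and Tgfb3, the receptors Tgfbr1 and Tgfbr2, the signal transducer Smad3, and Id1, Id2 and Id3. All probe sets annotated to these symbols were taken, which gave 21 probe sets among 34945 that carried 1 gene symbol, and 9 genes among 18193. A probe set is a group of short probes on the array that together give 1 expression value for a transcript.

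TGF-beta ligands are secreted in a latent form and, once released, bring a type II receptor (Tgfbr2) together with a type I receptor (Tgfbr1), which then phosphorylates Smad2 and Smad3 so that they enter the nucleus with Smad4. The pathway is known for driving matrix production and the myofibroblast state in fibroblasts, and it acts on cardiac muscle and on reactive astrocytes. Id proteins are helix-loop-helix proteins without a DNA-binding region that hold E proteins away from DNA. Their genes are classic targets of bone morphogenetic protein signalling, and TGF-beta lowers or raises them depending on the cell.

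The 23 samples were individual mouse cells, grown in DMEM with 10% fetal bovine serum and picked with a glass micropipette, and the RNA of each was amplified, labelled with biotin and hybridised to 1 Affymetrix array. The study asked whether the transcriptome of 1 cell type, moved into another, changes the recipient. The cells without transfection were 3 fibroblasts and 4 cardiomyocytes. The fibroTIPeR group (5 cells) was made of fibroblasts that received poly-A RNA of cardiomyocytes by lipid transfection, and fibroControl cells (3) were fibroblasts that received RNA of fibroblasts. AstroTIPeR cells (6) were astrocytes that received cardiomyocyte RNA, and the 2 cells of astroControl came from a mock transfection of astrocytes. The labels name no strain, genotype, age or tissue, and they do not say which cells shared a culture or an animal, so a p-value here reflects cell-to-cell spread alone, part of which may be technical.

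Values are log2 expression after quantile normalization of all arrays, and a difference of 1 is a change of 2-fold. Differences were tested with limma over all 34945 probe sets, and adjusted p-values are Benjamini-Hochberg values over all of them, with a threshold of 0.05. Fibroblasts served in 3 of the 6 comparisons, fibroControl in 2, cardiomyocytes in 2 and fibroTIPeR in 3, so the comparisons are not independent of each other. The arrays formed 2 sets, 15 of fibroblasts and cardiomyocytes with deposited medians of 5.05 to 5.58 and 8 of astrocytes with medians of 4.28 to 4.56, and no level was tested between them. The test that compares recipient types does set a difference within the fibroblast arrays against one within the astrocyte arrays. Its controls differ in kind, fibroblast RNA in fibroblasts and a mock transfection in astrocytes. Recipient type and kind of control therefore cannot be told apart wherever this test is given. Correlations between arrays ran from 0.535 to 0.919. The mean of the 3 probe sets for 18S ribosomal RNA, which has no poly-A tail, was 11.23 to 12.08 in fibroControl cells and 11.03 to 13.48 in fibroTIPeR cells 1 to 3. It was 7.80 and 7.88 in fibroTIPeR cells 4 and 5, 7.05 to 8.06 in fibroblasts, 6.94 to 8.24 in cardiomyocytes and 7.63 to 9.57 in astrocytes. Every fibroControl cell thus lay above every fibroblast in this measure. The mean of 6 cardiomyocyte markers was 9.08 to 10.83 in cardiomyocytes and 3.91 to 6.18 in the other groups, so the cardiomyocyte label was borne out. The mean of 8 fibroblast markers was 8.53 to 11.13 in fibroblasts, 8.52 to 10.88 in fibroControl, 8.72 to 9.39 in fibroTIPeR and 5.64 to 8.31 in cardiomyocytes. It was 7.36 to 8.76 in astroTIPeR and 7.17 to 8.84 in astroControl, which reaches into the fibroblast range. The mean of 7 astrocyte markers was 5.88 to 7.46 in astrocytes and 5.23 to 7.49 in the other cells, so these markers did not set the cells labelled astrocytes apart. The mean of 5 macrophage and microglia markers was 6.15 to 7.94 over all cells, that of 5 endothelial markers 4.19 to 6.98, and that of 4 smooth muscle markers 4.43 to 9.35. The part of other cell types in the results was not tested.

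**Figure D1:**
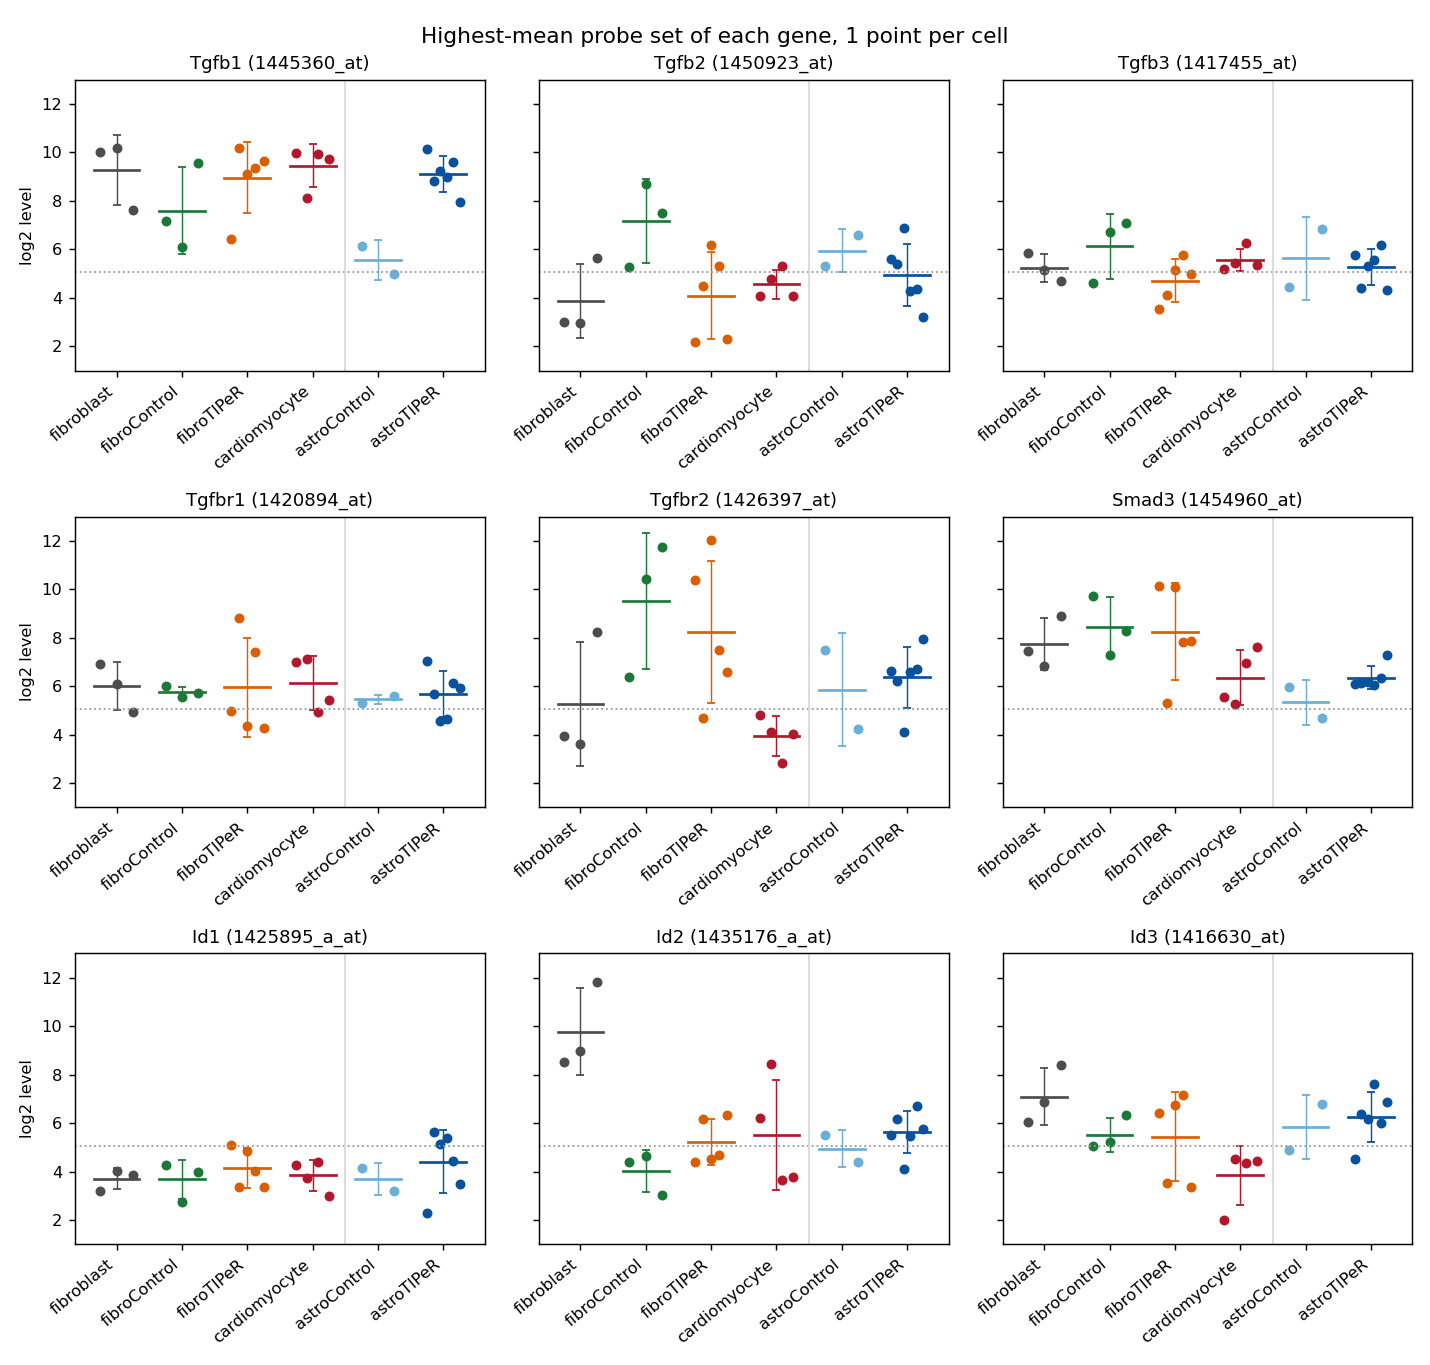
Log2 expression (vertical axis) of the highest-mean probe set of each of the 9 genes in every cell, by group; points are cells, the thick line is the group mean, bars are ± SD, the dotted line is 5.07, the median of the mean levels of all probe sets, and the grey line separates the arrays of astrocytes. The 3 fibroblasts stand above every other cell for Id2, and the cells of fibroTIPeR spread from 4.69 to 12.01 for Tgfbr2.

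The upstream sequences of Id2 and Id3 are shown because Id2 holds the 1 probe set that passed a test and Id3 had cardiomyocytes and fibroblasts that did not overlap, although no Id3 comparison passed. They are the 250 bases before the annotated start, 5′ to 3′ on the gene's own strand, from RefSeq on GRCm38.p6, at chr12:25096093-25096342 on the minus strand for Id2 and chr4:136143572-136143821 on the plus strand for Id3. Capitals mark 4 letter patterns searched on both strands: the Smad-binding letters CAGAC, the GGCGCC element known from Id1, the E-box CANNTG, and CCAAT.
Id2: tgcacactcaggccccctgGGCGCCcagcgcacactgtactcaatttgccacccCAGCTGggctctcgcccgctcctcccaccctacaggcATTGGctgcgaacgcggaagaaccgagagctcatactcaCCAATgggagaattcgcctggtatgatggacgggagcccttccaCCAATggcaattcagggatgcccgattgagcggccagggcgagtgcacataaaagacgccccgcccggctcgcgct
Id3: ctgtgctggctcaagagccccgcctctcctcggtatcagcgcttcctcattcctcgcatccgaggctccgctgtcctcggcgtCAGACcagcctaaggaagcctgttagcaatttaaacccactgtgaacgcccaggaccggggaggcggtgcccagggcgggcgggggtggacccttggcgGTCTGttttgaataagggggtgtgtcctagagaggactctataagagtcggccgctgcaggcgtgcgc
The Id2 window held GGCGCC 231 bases before the start, 1 E-box 196 bases before it, and CCAAT at 159, 120 and 76 bases before it, but no CAGAC. The Id3 window held CAGAC at 167 and 68 bases before the start and none of the other patterns. Among 32851 promoters of the same length, 42.2% held CAGAC, 9.59% GGCGCC, 66.2% CANNTG and 33.8% CCAAT. Of the 9 genes, 7 had entries in the table, with 8 promoters. The Tgfb2 window held CAGAC at 221 and 204 bases, an E-box at 51 and CCAAT at 130, and the Tgfbr2 window held CAGAC at 160 and CCAAT at 85 and 68. Of the 2 Tgfbr1 windows, the first held GGCGCC at 233 bases and CCAAT at 154 and 57, and the other CAGAC at 203 and an E-box at 238. Those of Tgfb1 and Smad3 held none of the patterns in these windows. A match of letters is a description and was not tested as a site.

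Id2, which restrains E proteins in many lineages, gave the 1 member probe set that passed the test in any comparison. Through probe set 1435176_a_at, the Id2 level was 8.51, 8.98 and 11.84 in the 3 fibroblasts and 4.39, 4.66 and 3.02 in the 3 fibroControl cells. The groups did not overlap, and the lowest fibroblast stood above every fibroControl cell. The fall in fibroControl was -5.75 (SE 1.05, 95% interval -7.90 to -3.60), with a limma p of 8.16e-06 and a Benjamini-Hochberg adjusted p of 0.0143. Over all probe sets 1.37% passed in this comparison in either direction and 0.747% were lower, against 1 of 21 member probe sets. The 18S level separated the same cells, so within these 2 groups it and the group cannot be told apart. With the 18S level as a covariate the difference was -5.57 and the limma adjusted p 0.287. Without fibroblast 3 it was -4.72, with a limma adjusted p of 0.0561.

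The Id2 level through 1435176_a_at was 4.40, 6.15, 4.52, 4.67 and 6.33 in the 5 fibroTIPeR cells. It was 6.20, 8.43, 3.65 and 3.78 in the 4 cardiomyocytes. Every one of these 9 cells lay below the lowest fibroblast. The 18S levels given above differed among the fibroTIPeR cells. Neither comparison passed after adjustment: the difference from fibroblasts was -4.56 (SE 0.94, limma adjusted p = 0.0725) for fibroTIPeR and -4.26 (SE 0.98, limma adjusted p = 0.0705) for cardiomyocytes. Alternative fits, 18S as a covariate among them, gave -5.19 to -3.53 for fibroTIPeR (limma adjusted p from 0.0171 to 0.901). For cardiomyocytes they gave -5.23 to -3.23 (limma adjusted p from 0.000354 to 0.614). The cause of these differences was not tested. In astroTIPeR cells the level was 4.12 at the lowest, 5.64 at the median and 6.69 at the highest, and in the 2 astroControl cells it was 5.50 and 4.40. These groups overlapped, with a difference of 0.67 (95% interval -1.48 to 2.82). In the order of group means, from 9.78 in fibroblasts to 4.02 in fibroControl, fibroblasts over astroTIPeR was the 1 pair of neighbours without overlap, across array sets and therefore untested.

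The other Id2 probe sets did not move with this one. Their mean levels over all cells, 4.70 for 1453596_at and 4.10 for 1422537_a_at, lay below 5.07, the median of all probe sets. That of 1435176_a_at was 5.79. Through 1453596_at the level was 3.65, 3.39 and 2.95 in fibroblasts and 5.20, 5.73 and 4.97 in fibroControl cells, so fibroblasts were the lower group and the groups did not overlap. The difference was 1.97 (SE 0.61) with a limma adjusted p of 0.0893. Through 1422537_a_at, whose annotation rests on a RefSeq transcript, fibroblasts had 3.65, 3.13 and 2.95 and fibroControl cells 5.53, 4.89 and 3.89. Here too fibroControl was higher in every cell, by 1.52 (SE 0.66, limma adjusted p = 0.233). Through 1453596_at, Id2 also differed from fibroblasts by 1.31 in cardiomyocytes (limma adjusted p = 0.475, no overlap) and by 1.19 in fibroTIPeR (limma adjusted p = 0.446). The mean of the 3 Id2 probe sets, chosen after seeing the data, differed by -0.75 between fibroControl and fibroblasts (limma adjusted p = 0.532). Over the 15 fibroblast and cardiomyocyte arrays, the r of 1435176_a_at was -0.561 with 1453596_at and -0.277 with 1422537_a_at, while the r of the latter pair was 0.61. The fall of Id2 in fibroControl therefore rests on 1 of its 3 probe sets, and which of them follows the transcript was not tested.

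**Figure D2:**
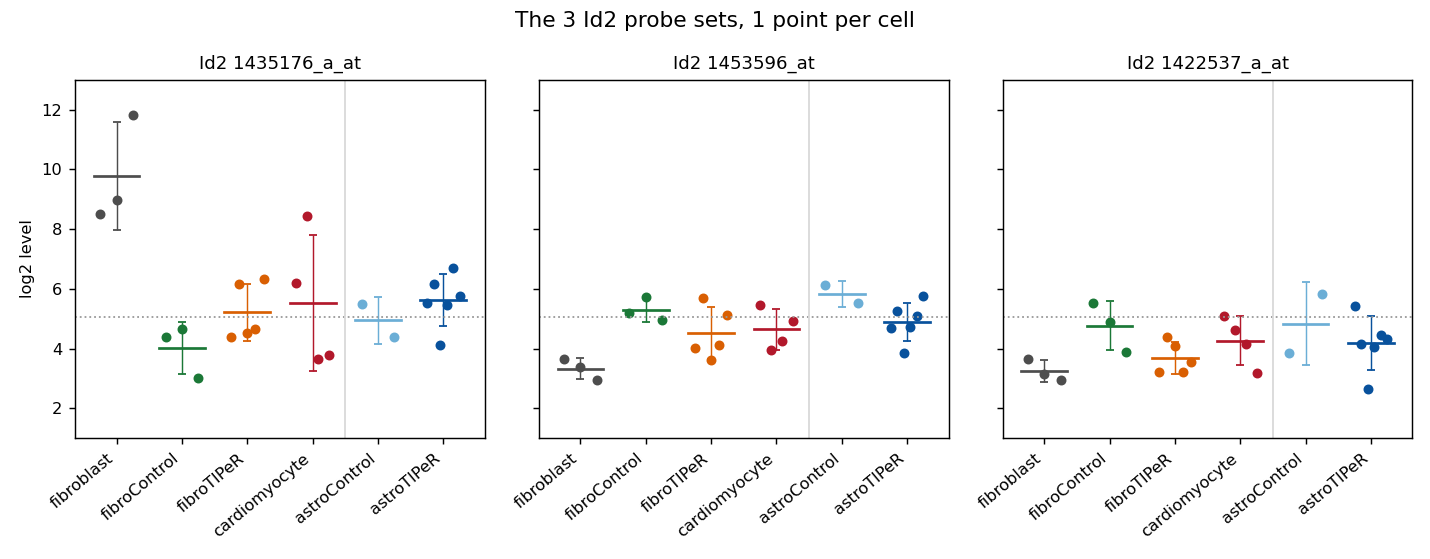
Log2 expression (vertical axis) of the 3 Id2 probe sets in every cell, by group; points are cells, the thick line is the group mean, bars are ± SD and the dotted line is 5.07, the median of the mean levels of all probe sets. Fibroblasts are the highest group through 1435176_a_at (8.51 to 11.84) and the lowest through 1453596_at (2.95 to 3.65) and 1422537_a_at (2.95 to 3.65).

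Id3, a close relative of Id1 with the same mode of action, had 1 probe set (1416630_at). The Id3 level was 6.04, 6.86 and 8.39 in fibroblasts and 2.02, 4.53, 4.36 and 4.45 in cardiomyocytes, so every fibroblast was above every cardiomyocyte. The difference was -3.25 (SE 0.94), and the limma adjusted p of 0.220 missed the threshold. FibroControl cells had 5.04, 5.20 and 6.31, between the other groups, with the highest of them inside the fibroblast range. FibroTIPeR cells had 6.43, 3.51, 6.75, 7.14 and 3.37, so 3 of the 5 lay in the fibroblast range and 2 below the fibroControl cells. Against cardiomyocytes the fibroTIPeR difference was 1.60 (95% interval -0.10 to 3.30), and against fibroControl it was -0.08 (95% interval -1.93 to 1.77). In astroTIPeR the Id3 level ran from 4.53 through a median of 6.27 to 7.62, and astroControl cells had 4.90 and 6.78, inside that range. Group means ran from 7.09 in fibroblasts to 3.84 in cardiomyocytes, and every pair of neighbours in that order overlapped.

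Id1, the most studied target of bone morphogenetic proteins among the Id genes, had 1 probe set (1425895_a_at) and ran from 2.30 to 5.63 over all 23 cells. Both extremes were astroTIPeR cells. Group means ran from 3.68 in fibroControl to 4.40 in astroTIPeR, every neighbour in that order overlapped, and the fitted differences of the 6 comparisons ran from -0.02 for fibroControl against fibroblasts to 0.72 (95% interval -0.76 to 2.19) for astroTIPeR against astroControl. No probe set of Id1 or Id3 passed the test in any comparison.

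Among the ligands, Tgfb1, the isoform best known from fibrosis, showed its difference in astrocytes. Through probe set 1445360_at the Tgfb1 level was 10.13, 8.82, 9.25, 8.97, 9.59 and 7.94 in the 6 astroTIPeR cells, with a median of 9.11, and 6.13 and 4.98 in the 2 astroControl cells. Every astroTIPeR cell lay above both control cells. The difference was 3.56 (SE 0.98, 95% interval 1.55 to 5.56), and it missed the threshold with a limma adjusted p of 0.142. In this comparison 2 of 21 member probe sets did not overlap, against 11.2% of all probe sets, and 0 of 21 passed, against 0.0744%. The astroControl group has only 2 cells. The other Tgfb1 probe set, 1420653_at, whose annotation rests on a RefSeq transcript, had 3.09 to 5.90 in astroTIPeR and 3.51 and 4.40 in astroControl, with a difference of 0.59.

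In the fibroblast groups Tgfb1 was uneven between cells of 1 group. The level through 1445360_at was 6.43, 10.20, 9.09, 9.35 and 9.66 in fibroTIPeR cells and 7.15, 6.08 and 9.56 in fibroControl cells, which overlapped. Fibroblasts had 10.02, 10.20 and 7.62, and cardiomyocytes 9.99, 8.13, 9.94 and 9.74. The fibroTIPeR difference from fibroControl was 1.35 (95% interval -0.44 to 3.14). The transfer effect in fibroblasts minus that in astrocytes was -2.21 (SE 1.31, limma adjusted p = 0.709). A difference between the recipient types was thus not shown, and their controls, fibroblast RNA and a mock transfection, differed in kind. Group means of Tgfb1 ran from 9.45 in cardiomyocytes to 5.56 in astroControl, and all neighbours in that order overlapped.

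Tgfb2, the ligand that needs the coreceptor Tgfbr3 for efficient binding, had its highest group mean in fibroControl cells (7.16) and its lowest in fibroblasts (3.89), with overlap between all neighbours in the order. Through 1450923_at its level was 5.27, 8.69 and 7.52 in fibroControl, 2.18, 4.49, 6.16, 5.33 and 2.32 in fibroTIPeR, and 3.02, 2.98 and 5.66 in fibroblasts. The highest fibroblast and 2 fibroTIPeR cells reached above the lowest fibroControl cell, so the groups overlapped. FibroTIPeR differed from fibroControl by -3.06 (SE 0.91, limma adjusted p = 0.445), and fibroControl from fibroblasts by 3.27 (SE 1.02, limma adjusted p = 0.0908). Both comparisons share the fibroControl cells. A second Tgfb2 probe set, 1438303_at, had 5.99, 6.49 and 6.36 in fibroControl, 5.10, 4.12, 5.37, 4.18 and 3.18 in fibroTIPeR and 3.72, 5.06 and 4.43 in fibroblasts, and here fibroControl did not overlap with either group. The differences were -1.89 (limma adjusted p = 0.498) for fibroTIPeR and 1.88 (limma adjusted p = 0.148) for fibroControl against fibroblasts.

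The transfer effect on Tgfb2 through 1438303_at, fibroblast recipients minus astrocyte recipients, was -2.54 (SE 0.91, limma adjusted p = 0.474). The astrocytes had 2.59 to 5.10 in astroTIPeR and 3.09 and 3.21 in astroControl. Of the other Tgfb2 probe sets, 1450922_a_at went from 1.57 to 8.74 within fibroTIPeR alone and from 5.88 to 8.94 in fibroblasts, a difference of -2.88 (limma adjusted p = 0.472), which is opposite in sign to that of 1450923_at (0.21). The fourth, 1423250_a_at, ran from 2.27 to 6.66 over all cells. Tgfb2 in cardiomyocytes, through 1450923_at, was 4.09, 4.78, 5.32 and 4.08, inside the fibroblast range.

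Tgfb3, the ligand known for palate fusion, had 1 probe set (1417455_at). Its level was 4.60, 6.72 and 7.07 in fibroControl and 3.54, 4.12, 5.15, 5.78 and 4.98 in fibroTIPeR, which overlapped. The difference was -1.42 (95% interval -2.84 to 0.01, limma adjusted p = 0.755). Fibroblasts had 4.69 to 5.86, cardiomyocytes 5.21 to 6.25, astroTIPeR 4.33 to 6.18, and astroControl 4.43 and 6.83. Group means ran from 6.13 in fibroControl to 4.71 in fibroTIPeR, with overlap between all neighbours.

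Among the receptors, Tgfbr2, which binds the ligand first and is constitutively active as a kinase, had through 1426397_at the widest spread over the 23 cells of the 21 probe sets (SD 2.63). Through 1426397_at the Tgfbr2 level was 10.39, 4.69, 12.01, 7.51 and 6.58 in fibroTIPeR, 6.37, 10.41 and 11.75 in fibroControl, and 3.96, 3.62 and 8.23 in fibroblasts. Cardiomyocytes had 4.81, 4.09, 2.84 and 4.03. All but 1 of the fibroTIPeR cells lay above the highest cardiomyocyte, and all fibroControl cells did. FibroTIPeR differed from cardiomyocytes by 4.29 (SE 1.26), with a limma adjusted p of 0.124, and the difference without fibroTIPeR 2 was 5.18 (limma adjusted p = 0.0443). With fibroTIPeR 1 to 3 alone, the cells of high 18S, it was 5.09 (limma adjusted p = 0.0413), with fibroTIPeR 4 and 5 alone it was 3.10 (limma adjusted p = 0.986), and with 18S as a covariate it was 2.40 (limma adjusted p = 1). Through 1422019_at fibroTIPeR was the lower group, by -1.06 (limma adjusted p = 0.473). FibroControl differed from fibroblasts by 4.24 (SE 1.53, limma adjusted p = 0.150), and fibroTIPeR from fibroblasts by 2.97 (SE 1.37, limma adjusted p = 0.455). Group means ran from 9.51 in fibroControl to 3.94 in cardiomyocytes, and every neighbour overlapped.

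In astrocytes the Tgfbr2 level through 1426397_at was 6.64, 6.21, 4.12, 6.60, 6.70 and 7.93 in astroTIPeR and 7.51 and 4.22 in astroControl, with a difference of 0.50 (95% interval -2.64 to 3.65). The second Tgfbr2 probe set, 1425444_a_at, had 7.09 to 8.31 in astroTIPeR and 9.56 and 5.66 in astroControl. It ran from 1.87 to 7.06 in the other 15 cells, so after quantile normalization each astroTIPeR cell lay above each fibroblast and cardiomyocyte. That order depends on the scaling: as deposited, fibroControl 2 (7.24) lay above astroTIPeR 4 (6.70) and astroTIPeR 5 (6.63). The comparison crosses array sets and was not tested. FibroControl cells had 4.69, 7.06 and 4.12 through 1425444_a_at and fibroblasts 3.41, 3.13 and 3.74, without overlap. The difference was 1.86 (SE 0.86, limma adjusted p = 0.273). The third, 1422019_at, whose annotation rests on a RefSeq transcript, ran from 2.95 to 6.27 over all cells, with the highest value in a cardiomyocyte.

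Tgfbr1, the type I receptor that Tgfbr2 activates, had group means through 1420894_at that ran from 6.13 in cardiomyocytes to 5.46 in astroControl, with overlap between all neighbours. Its level was 4.98, 8.81, 4.36, 7.41 and 4.26 in fibroTIPeR, and it stayed between 4.94 and 7.13 in fibroblasts, fibroControl cells and cardiomyocytes. The fibroTIPeR cells thus held both the highest and the lowest values. Through 1420895_at, cardiomyocytes had 4.95, 4.84, 4.97 and 5.47 and fibroblasts 4.05, 3.84 and 2.33, without overlap, a difference of 1.65 (SE 0.73, limma adjusted p = 0.492). The third probe set, 1420893_a_at, ran from 2.55 to 6.50 over all cells.

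Smad3, which carries the receptor signal to DNA, had levels through 1454960_at of 10.11, 5.32, 10.11, 7.84 and 7.88 in fibroTIPeR and 9.73, 7.27 and 8.28 in fibroControl. Fibroblasts had 7.47, 6.84 and 8.91, and cardiomyocytes 5.55, 5.25, 6.97 and 7.63. The fibroblast groups overlapped with each other and with the cardiomyocytes, and the lowest fibroTIPeR cell, cell 2, lay in the cardiomyocyte range. FibroTIPeR differed from cardiomyocytes by 1.90 (SE 0.87, limma adjusted p = 0.341). AstroTIPeR cells had 6.04 to 7.29 and both astroControl cells, with 5.98 and 4.69, lay below them, a difference of 1.01 (95% interval -1.15 to 3.17, limma adjusted p = 0.839). Group means ran from 8.43 in fibroControl to 5.34 in astroControl.

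Another Smad3 probe set, 1450471_at, went from 2.76 to 5.30 in fibroTIPeR and from 4.28 to 5.85 in fibroblasts, a difference of -1.34 (SE 0.57, limma adjusted p = 0.406). That is opposite in sign to the difference of 0.51 through 1454960_at. Its transfer effect in fibroblasts minus that in astrocytes was -2.10 (SE 0.85, limma adjusted p = 0.536). The third, 1450472_s_at, ran from 3.26 to 5.46 over all cells.

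**Figure D3:**
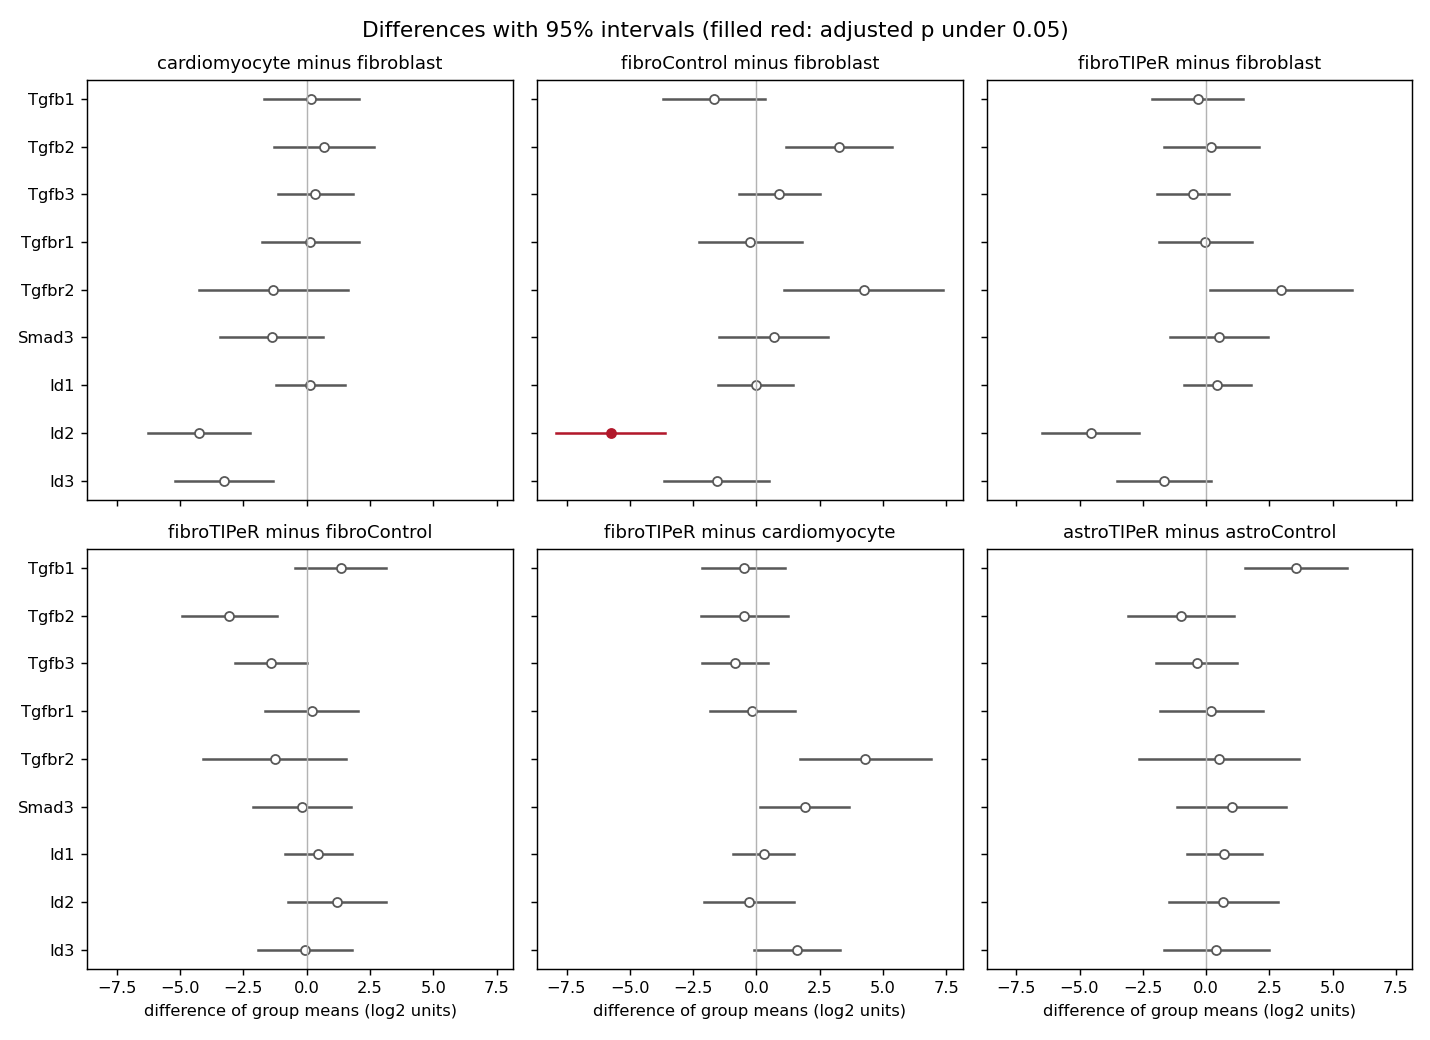
Difference in log2 expression (horizontal axis, first group minus second) of the highest-mean probe set of each gene in each comparison, with 95% intervals; a filled red point marks a limma adjusted p under 0.05. The single red point is Id2 in fibroControl against fibroblasts, at -5.75.

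Over the 21 member probe sets, calls and near-calls were read against the rate among all probe sets. In fibroControl against fibroblasts 7 of 21 had an unadjusted p under 0.05, against 16.6% of all, and 6 did not overlap, against 22.7%. In cardiomyocytes against fibroblasts 0 of 21 passed the adjusted threshold, against 0.16% of all probe sets, 4 had an unadjusted p under 0.05, against 9.3%, and 4 did not overlap, against 11.3%. In fibroTIPeR against fibroControl 0 passed, against 0.00286%, 2 had an unadjusted p under 0.05, against 6.66%, and 1 did not overlap, against 3.27%. These shares of members are small counts, and none of them is taken as a result about the members.

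In fibroTIPeR against fibroblasts 0 passed, against 0.0286%, 5 had an unadjusted p under 0.05, against 10.4%, and 1 did not overlap, against 5.39%. In fibroTIPeR against cardiomyocytes 0 passed, against 0.63%, 2 had an unadjusted p under 0.05, against 13.2%, and 0 were without overlap, against 3.79%. In astroTIPeR against astroControl 1 had an unadjusted p under 0.05, against 9.62%, and for the difference between recipient types 0 passed, against 0%, and 2 had an unadjusted p under 0.05, against 7.96%. Limma was the tool for all of these counts. No member probe set passed, then, when cardiomyocyte RNA was set against fibroblast RNA in fibroblasts or against a mock transfection in astrocytes.

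**Figure D4:**
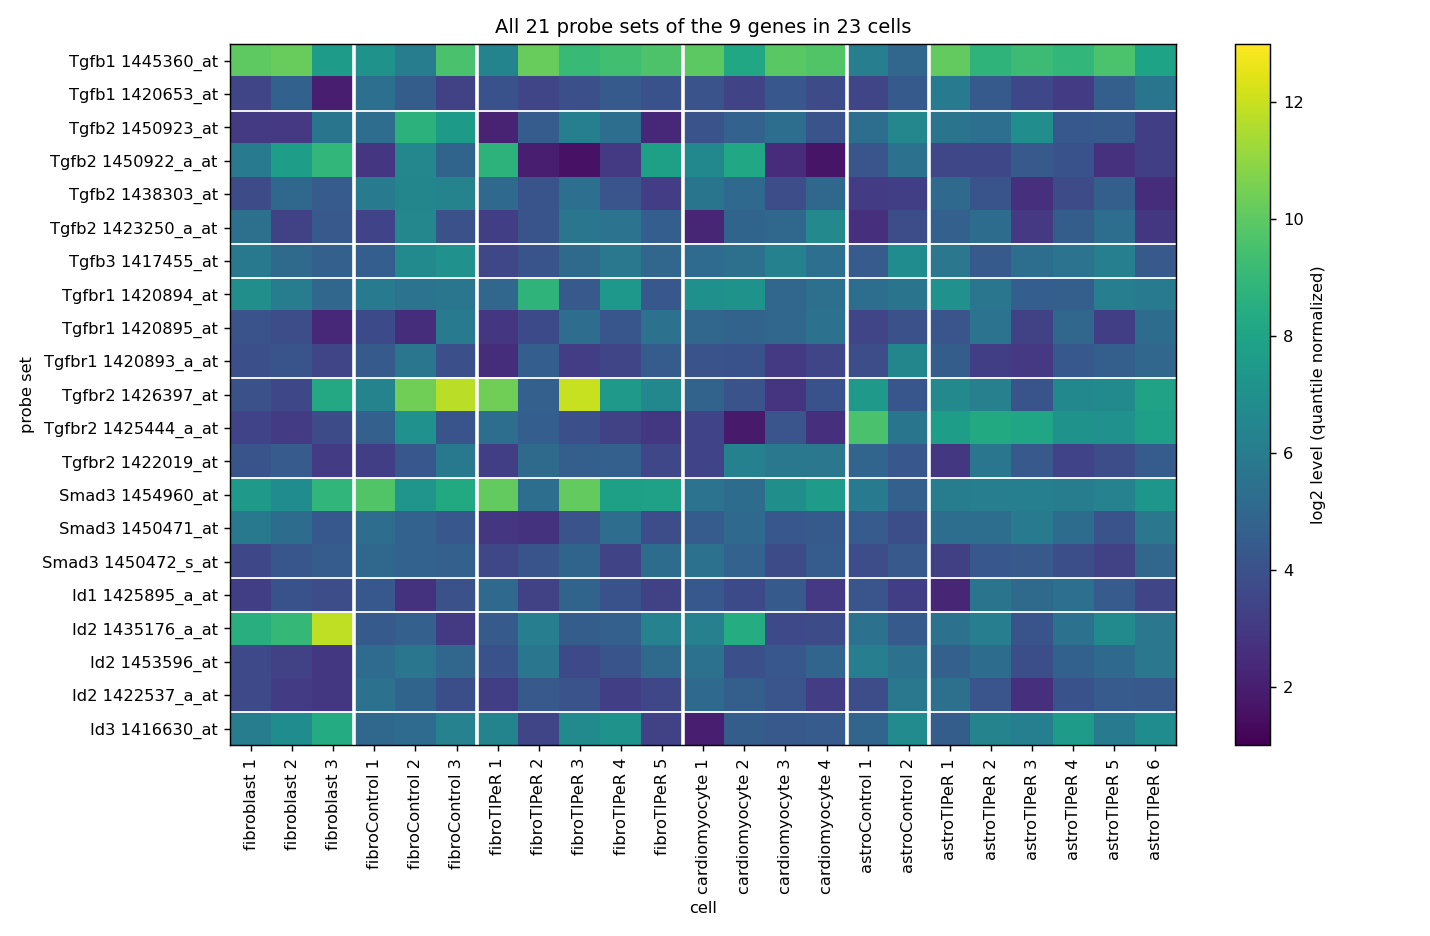
Log2 expression of all 21 member probe sets (rows, by gene) in the 23 cells (columns, by group), as colour. Probe sets of 1 gene often run differently between cells, as the 3 rows of Id2 do in the fibroblasts.

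Probe sets of 1 gene often disagreed among the members. Only 8 of the 21 member probe sets had a mean level above the median of all probe sets. Over the 15 fibroblast and cardiomyocyte arrays, the 19 pairs of probe sets from 6 genes had a median Pearson r of -0.096, from -0.561 to 0.61, and 13 of them were negative. The median over 30372 same-gene pairs of all genes was 0.047. The r of the Tgfb2 pair 1450923_at and 1438303_at was 0.599 and that of the Tgfbr2 pair 1426397_at and 1425444_a_at was 0.525. All of these arrays share 1 normalization, and the values are descriptions.

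Members also ran together or apart over these 15 cells, through their highest-mean probe sets. The cells of all their groups were pooled without removing group means, so an r mixes differences between groups with those between cells. Tgfbr2 and Smad3 had an r of 0.656 (Spearman rho 0.65), and 0.591 without the 2 cells farthest from the Tgfbr2 median. Smad3 and Id3 had an r of 0.594, and 0.549 without the 2 cells farthest from the Smad3 median. Tgfbr1 and Smad3 had an r of -0.669 (rho -0.596), and Tgfb1 and Tgfbr2 an r of -0.519 (rho -0.661) that was -0.283 without the 2 farthest cells. The receptor pair itself, Tgfbr1 and Tgfbr2, had an r of -0.422 (rho -0.296). The r of Tgfb2 and Tgfb3, 0.636 (rho 0.486), was 0.29 without the 2 cells farthest from the Tgfb2 median, so it leans on those cells. For Tgfb1 and Tgfbr2 the cells left out were the 2 farthest from the Tgfb1 median. There the rho over all 15 cells was stronger than the r, so whether that relation leans on 2 cells is not settled.

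**Figure D5:**
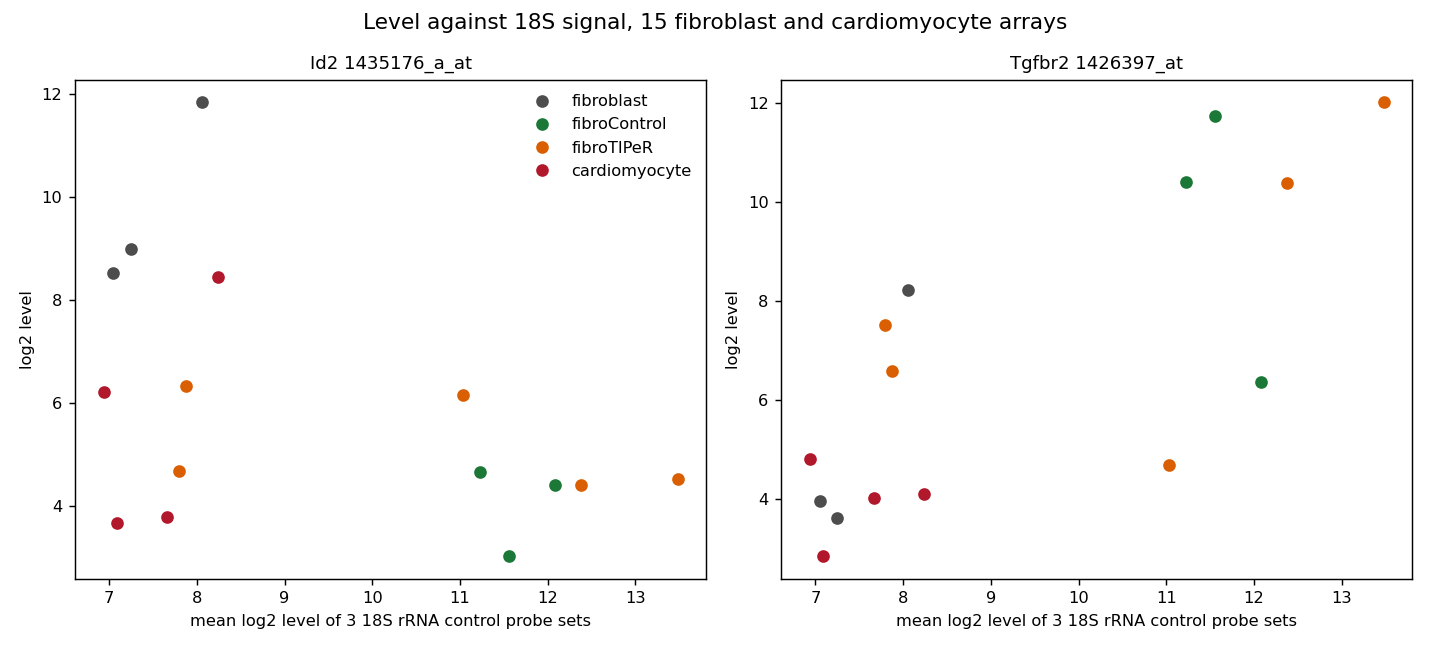
Log2 expression (vertical axis) of Id2 through 1435176_a_at and of Tgfbr2 through 1426397_at against the mean log2 level of the 3 probe sets for 18S ribosomal RNA (horizontal axis), 1 point per cell of the 15 fibroblast and cardiomyocyte arrays, coloured by group. All fibroControl cells and fibroTIPeR cells 1 to 3 lie at 11.03 or above on the horizontal axis and the other cells at 8.24 or below.

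The genes whose levels ran most like those of a member over the 15 arrays were found among 11903 genes, for the 7 members whose mean level was above the median, so not for Tgfb2 or Id1. For Id2 they were Tmie (r 0.912, rho 0.836), Thada and 4930505M18Rik. For Id3 they were Eif4g2, a translation initiation factor (r 0.927, rho 0.879), Ldha, lactate dehydrogenase A, and Srsf11. For Tgfbr2 they were Emp3, a membrane protein (r 0.954, rho 0.889, and 0.942 without the 2 farthest cells), Aga and Fat1. For Smad3 they were Qk, an RNA-binding protein (r 0.945, rho 0.932), Rbm7 and Ddx3x. For Tgfb1 they were Chrnb2 (r 0.937, rho 0.854), S1pr1 and Sorl1, for Tgfb3 Hoxd13 (r 0.839, rho 0.836), Trim46 and Thsd7b, and for Tgfbr1 A630001G21Rik (r 0.837, rho 0.761), Pdia4 and Ampd1. These are the highest of many correlations, mix differences between groups with those between cells, and carry no test.

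Of 84 other genes of the pathway in 7 lists, 77 were measured, and each was tested through its highest-mean probe set. In fibroControl against fibroblasts 3 of the 77 rose and 0 fell, while 0.643% of all genes were called higher. The 12 receptors and coreceptors held 1 of them: Tgfbr3, betaglycan, which presents Tgfb2 to the signalling receptors, went from 3.13 to 5.94 in fibroblasts to 9.44 to 11.89 in fibroControl. Its rise was 6.13 (SE 1.30, limma adjusted p = 0.0227), with fibroTIPeR cells at 4.01 to 11.25. The other Tgfbr3 probe set had a difference of -0.44. With the 18S level as a covariate the Tgfbr3 difference was 2.63 (limma adjusted p = 0.613), and the call was lost without fibroControl 1 (6.15), fibroControl 3 (5.50) or fibroblast 2 (5.44). In a fit of these groups alone the limma adjusted p was 0.0563 for Tgfbr3.

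The 14 Smads and regulators held the other two. Skil, a repressor of Smad-driven transcription, rose by 4.35 (SE 0.95, limma adjusted p = 0.0243), from 3.42 to 4.73 in fibroblasts to 7.98 to 9.37 in fibroControl. Smurf2, a ubiquitin ligase that targets Smads and the receptors, rose by 0.72 (SE 0.15, limma adjusted p = 0.0183), from 13.51 to 13.55 in fibroblasts to 14.09 to 14.37 in fibroControl. The other Skil probe set had a difference of 0.61, and the 2 other Smurf2 probe sets had 0.07 and 1.98, none past the threshold. The call of Skil was lost without fibroControl 1 or 2 or fibroblast 2 or 3, and that of Smurf2 without fibroControl 1 or 3 or fibroblast 2 or 3. In the fit with 18S as a covariate the limma adjusted p was 0.445 for Skil (3.41) and 0.434 for Smurf2 (0.53), and Skil also missed the threshold in a fit of these groups alone (0.0698) and Smurf2 in limma without a trend (0.322). The median difference of the 14 genes was 0.63, against 0.03 over all genes, and that of the receptors was -0.91.

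In fibroTIPeR against cardiomyocytes 4 of the 77 rose and 0 fell, while 0.5% of all genes were called higher. They were Bgn, biglycan, a small proteoglycan that binds TGF-beta (5.09, SE 0.85, limma adjusted p = 0.00231), Mmp14, a membrane protease that can release latent TGF-beta (4.34, SE 0.87, limma adjusted p = 0.0133), and the matrix genes Col1a2 (5.11, limma adjusted p = 0.0156) and Fn1, fibronectin (3.64, limma adjusted p = 0.042). The fibroTIPeR and cardiomyocyte cells did not overlap for any of them: Bgn was 10.88 to 13.69 against 5.25 to 10.06 and Mmp14 7.77 to 10.42 against 4.03 to 5.41. Col1a2 was 6.94 to 12.52 against 4.63 to 5.55, and Fn1 was 6.96 to 11.37 against 4.89 to 6.19. One of the 2 other Mmp14 probe sets was at -0.04, and the other probe sets of Bgn, Col1a2 and Fn1 were all positive. Col1a2 is also one of the fibroblast markers, and all 4 genes are expressed by fibroblasts in general. Among the 11 measured Smad3 response genes 2 rose, the median was 2.19 against -0.14 over all genes, and 10 were positive. Of 8 fibroblast markers 3 rose in the same comparison, Vim, S100a4 and Col1a2. Col1a2 stands in both lists through the same probe set, so the lists are not separate. Of the 8 markers 7 were positive, and Dcn was at -1.65. None of the 4 calls held with the 18S level as a covariate (limma adjusted p from 0.272 to 1, with Fn1 at 2.03) or with fibroTIPeR 4 and 5 alone (limma adjusted p from 0.161 to 0.986, with Fn1 at 2.21), and Fn1 also missed the threshold on the values as deposited (0.0791). The call of Mmp14 was lost without cardiomyocyte 4 (4.10), that of Col1a2 without fibroTIPeR 3 (4.48) or cardiomyocyte 2, 3 or 4, and that of Fn1 without fibroTIPeR 1 (3.10) or 3 (3.22) or any 1 cardiomyocyte.

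In cardiomyocytes against fibroblasts all 11 measured Smad3 response genes were lower in the mean, with a median of -2.66 against 0.09 over all genes, but 0 passed the test, and 2 of 8 fibroblast markers fell, against 0.104% of all genes called lower. Over all 77 genes 0 passed in this comparison with limma, and at least 13 had an unadjusted p under 0.05, against 9.62% of all genes. Only the few smallest p-values of each list entered that count, and those of the Smad3 response genes were all under 0.05, so it is a minimum. The 11 genes of TGF-beta activation had a median of -1.05 and the 10 Id partners and related factors one of -0.46. In fibroTIPeR against fibroControl 0 of 77 passed, and the unadjusted p was under 0.05 for 6, against 6.45% of all genes, with medians from -0.49 for TGF-beta activation to -0.06 for the Id partners, against -0.02 over all genes. In fibroTIPeR against fibroblasts 0 of 77 passed, and the unadjusted p was under 0.05 for at least 8, against 9.89%. For the same reason that count is a minimum, here through the Smads and their regulators. Medians ran from -0.35 for the Id partners to 0.94 for TGF-beta activation. In astroTIPeR against astroControl 0 of 77 passed, and the unadjusted p was under 0.05 for 5, against 9.27%, with medians from -0.22 for extracellular inhibitors to 0.96 for the 9 other ligands of the family, against 0.08 over all genes. For the difference between recipient types 0 of 77 passed, and the unadjusted p was under 0.05 for 9, against 7.55%. A p above the threshold in these small groups does not show that the levels were the same.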

How the data were processed

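Single cells were hybridised to Affymetrix arrays, and groups were taken from the labels. The authors deposited a table of 45101 probe sets whose range was that of log2 values. Their summarization and normalization, not given in the sources used here, remain unknown. The 64 control probe sets were left out, and 34945 probe sets carried 1 symbol, 932 several and 9160 none in the annotation used; gene IDs of 34741, and of all 9 members, matched the gene table, and no member's symbol changed.

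All columns were quantile normalized and fitted with limma 3.58.1 (R 4.3.3, statmod 1.5.0): lmFit with 6 group means over 23 cells, eBayes with a trend, two-sided, Benjamini-Hochberg adjustment over 34945 probe sets. A gene was described first through its probe set with the highest mean, then through the others; of the pathway lists, genes past the threshold were named. For each member above the median level, the 3 genes with the highest r were named. Figures used matplotlib 3.10.9 in Python 3.11.15. The fit was tested on simulated data. The members and lists were chosen with earlier results of these data known. Alternatives were other scalings, filters, eBayes settings, arrayWeights, fewer groups, the 18S level as a covariate, subsets of fibroTIPeR, a replicate term, and leaving out single cells. Detection calls were not used, and precision is limited by the number of arrays.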

Additional observations from a re-analysis of the deposited data

Results flagged for a closer look

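A single cell stood far from the others of its group in 4 of 63 groups of 4 to 6 cells (21 probe sets in 3 groups), and chance alone would give about 3.15. Cardiomyocyte 1 had an Id3 level of 2.02, against 4.36 to 4.53 in the other cardiomyocytes. Cardiomyocyte 2 had a Tgfb1 level of 8.13 through 1445360_at, against 9.74 to 9.99. AstroTIPeR 5 had a Smad3 level of 4.09 through 1450471_at, against 5.26 to 5.93. AstroTIPeR 6 had a Smad3 level of 7.29 through 1454960_at, against 6.04 to 6.34.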

How the results depend on the processing

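The count of member probe sets past the threshold moved under some alternatives. With arrayWeights it was 3 for cardiomyocytes against fibroblasts, 1 for fibroTIPeR against fibroblasts and 4 for fibroControl against fibroblasts. For the last comparison it was 0 in a fit of only the groups compared (Id2 limma adjusted p = 0.0652) and 0 with the 18S level as a covariate. With fibroTIPeR 1 to 3 alone it was 1 against fibroblasts and 1 against cardiomyocytes. Leaving out each cell in turn gave 0 to 1 in each of these 4 comparisons; the cells that changed it were cardiomyocyte 2, fibroTIPeR 5, fibroblast 3 and fibroTIPeR 2. The Id2 difference between fibroControl and fibroblasts ran from -6.38 to -4.72 without single cells, with limma adjusted p from 0.0182 to 0.0561. With the replicate number as a block it was -5.75 (limma adjusted p = 0.0204). That block ended the call of Fn1 (limma adjusted p = 0.0655) and no other named call. After the group mean of each probe set was taken off, same-numbered cells of the groups compared correlated at -0.3 to 0.26. In each comparison among fibroblast groups, 2 of 3 shared numbers correlated best with their own number, against 0 in those with cardiomyocytes. So few numbers cannot show whether a number stands for a shared culture or is only a name. Of 574 values of 30 named differences under alternatives, 516 kept direction and side of the threshold, 47 lost the call, 11 gained one and 0 reversed. Only 8 of the 30 were past the threshold in the main fit, and all lost calls come from these. The rest were member probe sets taken for an unadjusted limma p under 0.05, so a kept side often means a difference that stayed uncalled. Since the differences were picked from these same data, the lack of reversals is no support for them. The median of all genes for fibroTIPeR against cardiomyocytes was -0.14, -0.24 as deposited and -0.03 with median centring; for astroTIPeR against astroControl it was 0.20 with median centring. Without 1 astroControl cell, the lone cell is assumed to vary like the other groups. The cause of these shifts was not tested. Signal over background is unknown, since no background level was set.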
